A study of Homo sapiens with 5 samples.

Results

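10 genes were followed through a knockdown experiment on USP17, a deubiquitinase, in COLO 320DM, a human colorectal adenocarcinoma line. They were chosen by name as feedback inhibitors and transcriptional outputs of ERK signalling. The set has 3 MAPK phosphatases (DUSP4, DUSP5, DUSP6), 4 Sprouty and SPRED inhibitors (SPRY2, SPRY4, SPRED1, SPRED2), 2 ETS factors of the PEA3 group (ETV4, ETV5), and PHLDA1, a further ERK-responsive gene. All 10 were found among the 60651 genes of the deposited tables. Poly(A) RNA was sequenced from 5 libraries. The siIDT, sino4 and siSMPLT libraries (USP17 siRNA, n = 3) were assigned to USP17 because the series names the remaining siL2 and siNT (control siRNA, n = 2) as its non-silencing controls. All cells were of the same line, and no label gives a dose, a time or an untransfected sample. Every duplex is represented by a single library, with no statement that cultures were grown apart. The p-values therefore rest on the spread among 5 libraries, part of which may be technical, and duplex sequence cannot be told apart from library.

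ERK is the last kinase of the cascade that runs from receptor tyrosine kinases through RAS, RAF and MEK. Its activity induces genes whose products switch the cascade off again: DUSP proteins remove the activating phosphates from MAP kinases, and Sprouty and SPRED proteins act on RAS and RAF. The same activity raises the PEA3 factors, partly by removing capicua (CIC), a repressor that sits on their promoters, so the mRNA of these genes is often read as a gauge of pathway output in tumours.

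The libraries held 32259474, 32211160 and 31704821 reads in genes for siIDT, sino4 and siSMPLT, and 34320214 and 36276143 for siL2 and siNT. The USP17L family, the targeted genes, had 0 reads over its 30 annotated members in each of the 5 libraries. RSEM counts, which share out reads that map to several genes, were also 0 in each, controls included. The knockdown itself could therefore not be measured from these counts, and no fold is given. CTNNB1, the gene of the study's title, had a log2 fold change of -0.77 ± 0.07 (SE). Of markers for the labelled tissue, CDX2 averaged 1488 TPM with USP17 siRNA and 1799 TPM with control siRNA (TPM, a level corrected for transcript length and depth), while CDX1 and VIL1 averaged under 0.05 TPM in both groups. CDH17, another gut epithelial gene, averaged 19.8 TPM with USP17 siRNA and 10.5 TPM with control siRNA, and the leukocyte gene PTPRC averaged 18.4 TPM with USP17 siRNA and 17.7 TPM with control siRNA, with CD3E at 0 TPM throughout. Reads on no gene made up 7.05% to 7.49% of reads with USP17 siRNA and 6.37% to 6.58% with control siRNA. The part of these differences in the results below was not tested.

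The 10 genes did not move as one block. ETV5 fell to 0.40 of its control level, SPRED2 fell to 0.74 of it and DUSP5 rose 1.59-fold, while ETV4, SPRED1, DUSP6 and PHLDA1 did not pass the test. In such bulk libraries, fewer cells that express a gene and less of its RNA per cell cannot be told apart. SPRY2 was lower in every USP17 library but did not pass either, and DUSP4 and SPRY4 were hardly transcribed in any library. Of the 8 genes with enough reads to test, edgeR's quasi-likelihood test called 1 higher and 2 lower (adjusted p under 0.05). Across all 16341 genes tested, 10.5% were called, 4.64% higher and 5.82% lower. That is 759 genes higher and 951 lower, a balance that turned to 961 higher and 812 lower when libraries were scaled by size alone. At an unadjusted p under 0.05 in edgeR there were 4 of the 8 genes and 28.9% of all genes tested. DESeq2 and limma-voom each called 3 of the 8, though SPRY2 had no adjusted p in DESeq2. Over all genes, DESeq2 called 17% of the 13806 with an adjusted p and limma-voom 10.3% of those tested. The groups did not overlap in 4 of the 8, with 1 higher and 3 lower. Over all genes tested they did not overlap in 45.9%, with 23.3% higher and 22.6% lower, so lack of overlap by itself was common. The median log2 fold change of the 8 was -0.14, against 0.01 over all genes tested.

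**Figure D1:**
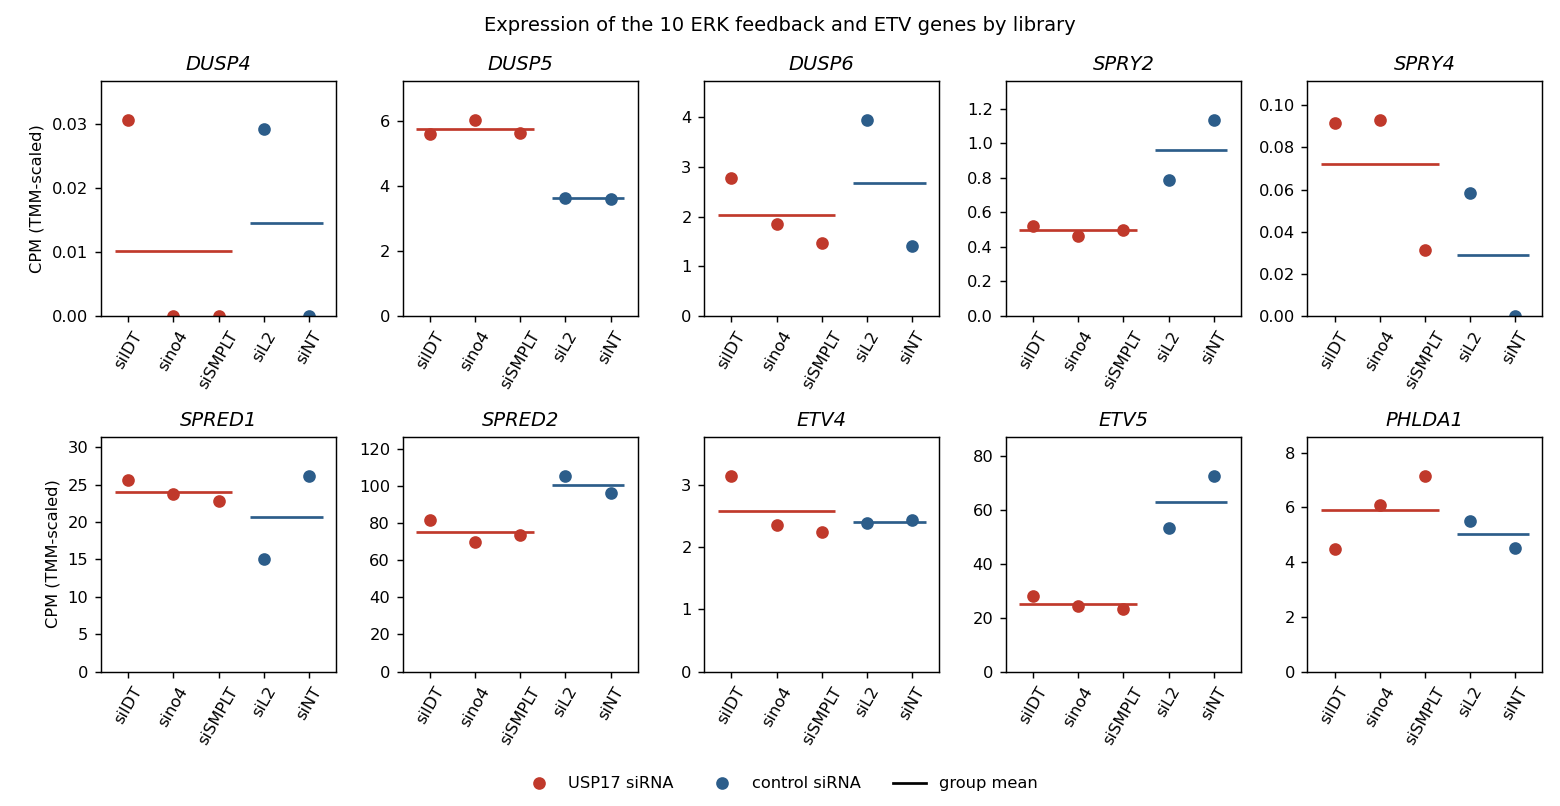
CPM (counts scaled to library size by TMM; vertical axes start at 0 and differ between panels) of the 10 genes in each library, USP17 siRNA in red and control siRNA in blue, with a line at each group's mean. ETV5, SPRED2 and SPRY2 lie lower and DUSP5 higher in all 3 USP17 libraries, while the DUSP6 and SPRED1 values of the 2 controls enclose those of the USP17 libraries.

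Levels differed widely between the genes. In control libraries SPRED2 was the most abundant, at 40.2 ± 0.389 TPM (SD, n = 2), followed by ETV5 at 23.0 ± 4.57 TPM, and these did not overlap each other or any other of the 10 genes. With USP17 siRNA the order was the same, with SPRED2 at 29.6 ± 2.87 TPM (SD, n = 3) and ETV5 at 9.16 ± 1.10 TPM. SPRED1 came next at 5.89 ± 0.204 TPM with USP17 siRNA and 4.98 ± 1.15 TPM with control siRNA. DUSP5, ETV4, DUSP6 and PHLDA1 lay between 0.66 and 3.41 TPM in every library, and neighbours among them overlapped in places. With USP17 siRNA DUSP5 lay above the rest and the ranges of ETV4, DUSP6 and PHLDA1 overlapped, while in control libraries DUSP6 overlapped ETV4 and PHLDA1, and ETV4 overlapped DUSP5. SPRY2 stood at 0.33 ± 0.0361 TPM with USP17 siRNA and 0.60 ± 0.127 TPM with control siRNA, and SPRY4 and DUSP4 at 0.03 TPM or less everywhere. RSEM's effective length, which follows its estimate of the transcript mix, varied between libraries from 2073 to 3105 bases for DUSP6, 1668 to 2173 for ETV4 and 5176 to 6500 for SPRED1. It varied only from 3879 to 3960 bases for ETV5. The TPM values of the first 3 of these genes therefore move with that estimate as well as with their reads.

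Among the MAPK phosphatases, DUSP5, a nuclear phosphatase that acts on ERK (chromosome 10, 110497838 to 110511544, GRCh38), was higher with USP17 siRNA. It had 183, 194 and 180 reads in siIDT, sino4 and siSMPLT, or 5.60, 6.01 and 5.63 CPM (counts scaled to library size), against 124 and 127 reads, or 3.62 and 3.60 CPM, in siL2 and siNT. The 3 USP17 values lay close together and well above the controls, which were almost equal. On the log2 scale the change was 0.67 ± 0.14 (SE), with a 95% interval of 0.36 to 0.98 and adjusted p = 0.0218 by edgeR. The call was lost when siIDT, sino4 or siSMPLT was left out (adjusted p 0.0776, 0.123 and 0.0555, edgeR), while the fold change itself stayed between 0.64 and 0.69. The pseudogene DUSP5P1, from which reads could be confused with DUSP5, had 9 to 16 reads per library. With RSEM counts, which share out multi-mapping reads, the log2 fold change of DUSP5 was 0.71.

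DUSP6, the cytoplasmic ERK phosphatase most often used as a readout of pathway activity (chromosome 12, 89347232 to 89353271), did not pass the test. It measured 2.78, 1.86 and 1.47 CPM with siIDT, sino4 and siSMPLT, against 3.94 and 1.42 CPM with siL2 and siNT. The controls stood 1.44 apart on the log2 scale, and siL2 was the highest and siNT the lowest of all 5 libraries. Its log2 fold change was -0.39 with a 95% interval of -1.33 to 0.56, which leaves room for a fall of more than 2-fold and for a rise. It was 0.53 without siL2 and -0.95 without siNT, so its direction rests on which control is used. DUSP4 (chromosome 8, 29333064 to 29350668) had 1 read in siIDT and 1 in siL2 and 0 in the other 3 libraries. Taking 3 reads, the usual one-sided limit for a count of 0, as the floor of each library (0.0827 to 0.0946 CPM), every DUSP4 value lay under it, and a difference was not detectable at this depth.

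**Figure D2:**
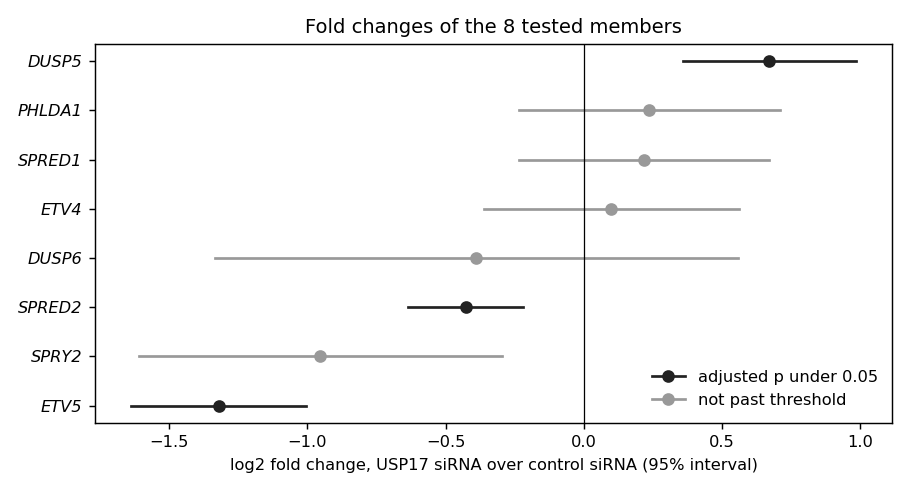
Log2 fold change, USP17 siRNA over control siRNA, with its 95% interval, for the 8 genes tested, black where the adjusted p was under 0.05 and grey otherwise. ETV5 (-1.32) and DUSP5 (0.67) stand at opposite ends, and the interval of DUSP6 is the widest.

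Sprouty and SPRED genes also split. SPRED2, which holds RAF in check at the membrane (chromosome 2, 65310851 to 65432637), measured 81.7, 69.6 and 73.5 CPM with siIDT, sino4 and siSMPLT, against 105.5 and 96.0 CPM with siL2 and siNT. All 3 USP17 values lay below both controls. Its log2 fold change was -0.43 ± 0.09 (SE; adjusted p 0.0252 in edgeR's test), with a 95% interval of -0.63 to -0.22. As with DUSP5, the call was lost without siIDT, sino4 or siSMPLT (adjusted p 0.0509, 0.135 and 0.0709, edgeR), at log2 fold changes of -0.49, -0.38 and -0.41.

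SPRY2, an inhibitor of receptor signalling to RAS (chromosome 13, 80335976 to 80340951), had 17, 15 and 16 reads in siIDT, sino4 and siSMPLT, against 27 and 40 in siL2 and siNT. Scaled to library size these were 0.520, 0.465 and 0.50 CPM against 0.788 and 1.13 CPM. The USP17 libraries were nearly equal and all below the controls. With a log2 fold change of -0.95 and a 95% interval of -1.61 to -0.30, SPRY2 missed the threshold (adjusted p 0.0704, unadjusted 0.00981, edgeR). Without siL2 it passed, at -1.19 (adjusted p 0.0423, edgeR), and without siNT it was -0.67 (0.241). These counts are low: the exact Poisson interval of 15 reads runs from 8.395 to 24.7 and that of 40 reads from 28.6 to 54.5, counting error only. SPRY4 (chromosome 5, 142310427 to 142326455), the paralog most often read beside SPRY2, had 3, 3 and 1 reads with USP17 siRNA and 2 and 0 with control siRNA, and no fold is given.

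SPRED1, the paralog of SPRED2 that brings neurofibromin to the membrane (chromosome 15, 38252326 to 38357249), did not follow it. It measured 25.6, 23.7 and 22.8 CPM with siIDT, sino4 and siSMPLT, against 15.1 and 26.2 CPM with siL2 and siNT. The siL2 library alone stood low, and siNT was above all 3 USP17 libraries. The log2 fold change was 0.22, with a 95% interval of -0.24 to 0.67. Without siL2 it was -0.13, and without siNT 0.67 (adjusted p 0.00776, edgeR), so any call depends on the siL2 library.

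**Figure D3:**
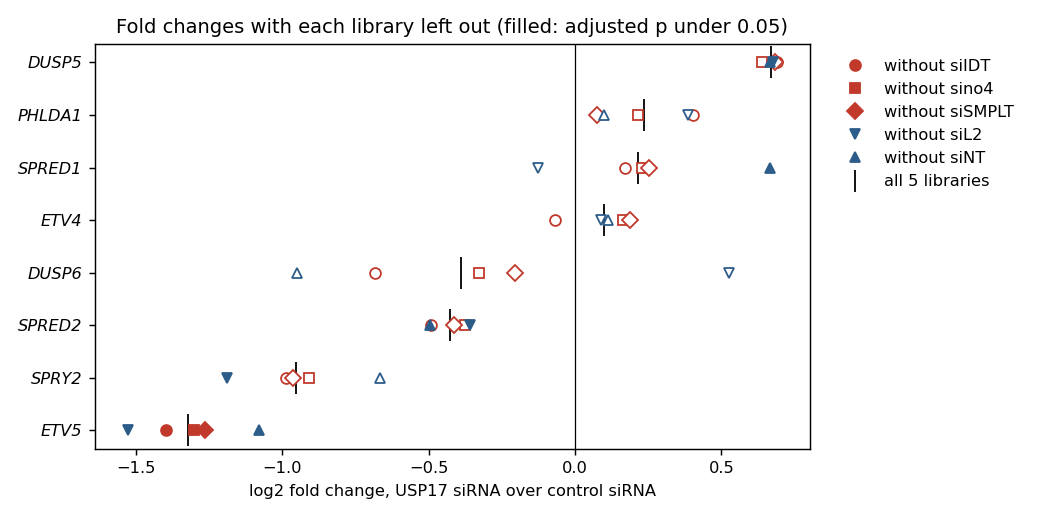
Log2 fold change of the 8 tested genes after leaving out each library in turn, with a black bar for all 5 libraries and filled symbols where the adjusted p was under 0.05. ETV5 keeps its call in all 5 refits, while DUSP6 and SPRED1 change sign without siL2 and ETV4 without siIDT.

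Short sequences in 3' UTRs were looked up because carriers of certain 7-base sequences (7-mers) were found, in earlier work on these same libraries, to be shifted together. ATCACTC and TCACTCA were picked for carriers that were lower in USP17 libraries, and GATCATC for carriers that were lower in siL2, so their shares among called genes are a description. None of the 10 genes holds ATCACTC or TCACTCA in its longest annotated 3' UTR (GENCODE 29), against 8.06% and 12.4% of tested genes with a 3' UTR. Among genes called lower the shares were 20.2% and 22.01%. ETV5 and SPRED2, which fell, are among these genes, and the cause of their falls was not tested. GATCATC occurs in 6.399% of tested genes with a 3' UTR, in 3.21% of those called lower and in 11.25% of those called higher, and among the 10 it occurs in SPRED1 alone, the gene that was low in siL2. BRAF, whose kinase lies at the head of the MEK and ERK steps, holds it at 2 places and was also lowest in siL2. It was looked up after its values were seen. The sites are shown because SPRED1 and BRAF were both lowest in the siL2 library. As GATCATC was picked in these libraries for carriers low in siL2, the 2 genes are no separate test of it. RASA1 and SHOC2 were also lowest in siL2, with siNT higher by 0.66 and 0.63 on the log2 scale against 0.67 for BRAF. Their 3' UTRs were not looked up. Other genes of the pathway differed more between the controls, among them DUSP6, which was highest in siL2. The sites are written 5′ to 3′ on the gene's strand (GENCODE 29 transcripts, GRCh38), with the 7-mer in capitals. Their positions are chr15:38353389-38353417 for SPRED1, and chr7:140726083-140726111 and chr7:140723767-140723795, minus strand, for BRAF.
SPRED1 3' UTR: ttgtgtatataGATCATCttgaagtatta
BRAF 3' UTR first site: aatttgtggctGATCATCtgatggggcag
BRAF 3' UTR second site: gctgcgtcactGATCATCttgtaagggtg
Whether siL2 acts on them was not tested, and its sequence is not given in the sources used here.

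BRAF measured 80.8, 83.8 and 79.3 CPM with siIDT, sino4 and siSMPLT, against 40.4 and 64.3 CPM with siL2 and siNT. It lay higher with USP17 siRNA against either control, but by 0.34 on the log2 scale without siL2 and by 1.009 without siNT, against 0.63 with both (adjusted p 0.048, edgeR). The call was lost with RSEM counts (adjusted p 0.059), with the unstranded counts (0.0588), and without siIDT (0.126), sino4 (0.155) or siSMPLT (0.0973), all in edgeR.

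Promoter windows are printed for the phosphatase, Sprouty and SPRED genes that hold one of the motifs searched. RefSeq promoter windows (GRCh38.p14, 250 bases before to 50 after the start) were found for 6 of the 10 genes, in 9 entries. Both strands were searched for the ETS motif CCGGAA, the AP-1 motif TGACTCA and the TCF motif CTTTGAT. For capicua only the short sequences TCAATGA and TGAATGA were searched. Other forms of its site were not, and the bases in lower case may hold some. The ETS, AP-1, capicua and TCF sequences searched occur in 17.2%, 4.95%, 6.27% and 2.62% of the 35116 windows of that length in the table. A match describes letters, not a bound site. The windows below are written 5′ to 3′ on the gene's strand, with matches in capitals. The DUSP6 window (chr12:89352452-89352751, minus strand) holds TGAATGA. The downstream SPRED2 start (chr2:65366729-65367028, minus strand) holds TCAATGA and an AP-1 match, and the first SPRY2 start (chr13:80341077-80341376, minus strand) an ETS match.
DUSP6: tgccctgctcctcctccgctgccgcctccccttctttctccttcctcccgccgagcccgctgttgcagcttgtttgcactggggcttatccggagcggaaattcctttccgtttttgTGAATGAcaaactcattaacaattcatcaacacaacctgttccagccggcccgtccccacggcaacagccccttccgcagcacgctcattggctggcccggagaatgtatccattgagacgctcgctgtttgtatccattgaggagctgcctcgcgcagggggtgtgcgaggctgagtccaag
SPRED2, downstream start: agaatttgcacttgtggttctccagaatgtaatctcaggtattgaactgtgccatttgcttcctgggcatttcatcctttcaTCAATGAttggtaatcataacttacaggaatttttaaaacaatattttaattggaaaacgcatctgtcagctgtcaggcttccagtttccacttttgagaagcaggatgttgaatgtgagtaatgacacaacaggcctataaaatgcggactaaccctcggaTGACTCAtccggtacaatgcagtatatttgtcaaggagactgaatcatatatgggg
SPRY2: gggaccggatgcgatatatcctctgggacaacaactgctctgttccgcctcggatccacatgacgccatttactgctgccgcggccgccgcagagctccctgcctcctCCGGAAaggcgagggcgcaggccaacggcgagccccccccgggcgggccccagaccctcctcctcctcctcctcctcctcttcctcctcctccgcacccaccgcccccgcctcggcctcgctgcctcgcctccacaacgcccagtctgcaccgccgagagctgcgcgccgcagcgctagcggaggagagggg
The upstream SPRED2 start, the other SPRY2 starts and the SPRED1 and SPRY4 windows hold none of the sequences searched, and the PHLDA1 window holds an ETS match.

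The PEA3 factors moved apart from each other. ETV5, a transcription factor induced by FGF and ERK signalling (chromosome 3, 186046308 to 186110318), had 912, 792 and 742 reads in siIDT, sino4 and siSMPLT, against 1823 and 2568 in siL2 and siNT. That is 27.9, 24.5 and 23.2 CPM against 53.2 and 72.7 CPM. The highest USP17 library lay far below the lower control. ETV5 thus had a log2 fold change of -1.32 ± 0.14 (SE), with a 95% interval of -1.64 to -1.004 and adjusted p = 0.00366 by edgeR. ETV5 kept its call in all 13 alternatives run, at -1.08 to -1.53 on the log2 scale. The smallest fall was found without siNT, the library in which ETV5 was highest.

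ETV4, its close paralog (chromosome 17, 43527844 to 43579620), measured 3.15, 2.35 and 2.25 CPM with siIDT, sino4 and siSMPLT, against 2.39 and 2.43 CPM with siL2 and siNT. Its USP17 values lay on both sides of the controls. Its log2 fold change was 0.10, with a 95% interval of -0.36 to 0.56. In TPM, ETV5 exceeded ETV4 4.50-fold, 4.59-fold and 5.66-fold in the USP17 libraries, against 13.7-fold and 12.9-fold in siL2 and siNT. The log2 CPM ratio of ETV5 to ETV4 was lower by 1.39 on average with USP17 siRNA, with an exact two-sided permutation p of 0.1, the smallest that 3 libraries against 2 allow. It is 1 of 4 such ratios computed, and the p adjusted over them was 0.133.

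ETV1, the remaining PEA3 factor, went the other way. It measured 72.0, 48.0 and 50.6 CPM with siIDT, sino4 and siSMPLT, against 33.2 and 28.2 CPM with siL2 and siNT, with siIDT well above the other USP17 libraries. Its log2 fold change was 0.89 ± 0.18 (SE; adjusted p 0.0195 in edgeR's test), and it lost the call without sino4 alone (adjusted p 0.0513, edgeR). Capicua and the ataxin proteins form a repressor complex that acts on PEA3 genes. Of 5 regulators of PEA3 factors tested, edgeR called 2 higher, CIC and ATXN1, where 4.64% of all genes were called higher. Whether these bear on ETV1, ETV4 or ETV5 was not tested. CIC measured 74.9, 68.1 and 64.4 CPM with siIDT, sino4 and siSMPLT against 54.1 and 53.5 CPM in siL2 and siNT, a log2 fold change of 0.36 ± 0.09 (SE; adjusted p 0.0374, edgeR). ATXN1 averaged 12.8 ± 0.361 CPM (SD, n = 3) with USP17 siRNA and 8.60 ± 0.145 CPM (SD, n = 2) with control siRNA, a log2 fold change of 0.57 (adjusted p 0.0178, edgeR). ATXN1L had a log2 fold change of 0.29 and an adjusted p of 0.0671 (edgeR), and COP1, a ubiquitin ligase for PEA3 proteins, one of -0.01. CIC lost its call without siIDT, sino4, siSMPLT or siNT (adjusted p 0.0507 to 0.148, edgeR) and ATXN1 without siIDT (0.0714) or sino4 (0.106). None of ETV1, CIC and ATXN1 holds any of the 7-mers above.

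**Figure D4:**
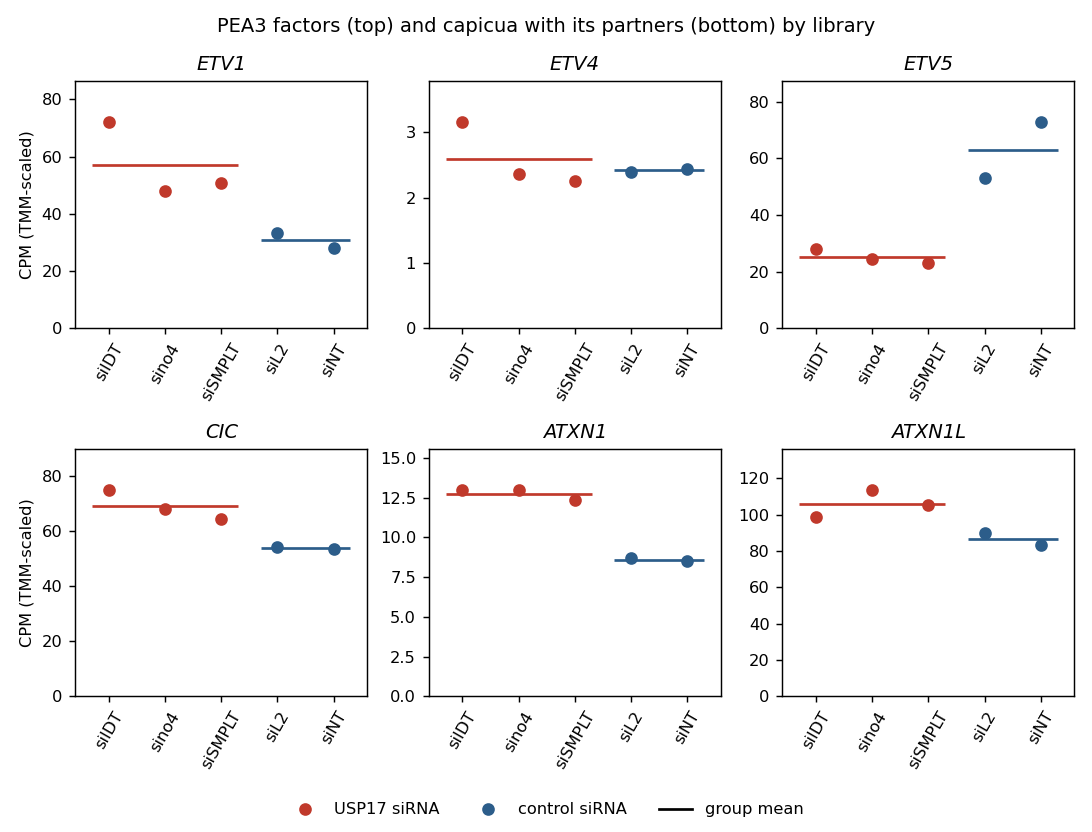
CPM by library of the PEA3 factors ETV1, ETV4 and ETV5 (top) and of CIC, ATXN1 and ATXN1L (bottom), with group means as lines and vertical axes that start at 0 and differ between panels. ETV1 is higher and ETV5 lower in all 3 USP17 libraries, while ETV4 stays within 2.25 to 3.15 CPM.

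PHLDA1, an ERK-responsive gene whose protein binds membrane lipids (chromosome 12, 76025447 to 76033932), measured 4.50, 6.10 and 7.16 CPM with siIDT, sino4 and siSMPLT, against 5.52 and 4.53 CPM with siL2 and siNT. Its USP17 libraries were spread more widely than the controls and enclosed them. The log2 fold change was 0.24, with a 95% interval of -0.24 to 0.71.

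The control libraries also differed from each other in these genes. The median absolute difference of siNT from siL2 was 0.37 on the log2 scale over the 8 tested genes and 0.19 over all genes tested. The controls were at least 1.5-fold apart in 2 of the 8, DUSP6 and SPRED1, and in 12.9% of all genes tested. In ETV5 they differed by 0.45, with siNT the higher.

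Genes elsewhere in the pathway were taken from 10 lists of 165 genes, of which 114 were tested, 7 were called higher and 11 lower (15.8% called, against 10.5% of all genes tested). Of FGF receptors and ligands 4 of 12 tested genes were lower and none higher, at a median log2 fold change of -0.28. FGF20, a ligand, had 0.184, 0.186 and 0.0625 CPM with siIDT, sino4 and siSMPLT against 1.23 and 1.302 CPM with siL2 and siNT (log2 fold change -3.10, adjusted p 0.0048, edgeR). FGFR4, a receptor that responds to gut-derived FGF19, averaged 24.9 ± 1.78 CPM (SD, n = 3) with USP17 siRNA and 37.2 ± 5.80 CPM (SD, n = 2) with control siRNA, at a log2 fold change of -0.58. FGFRL1, a receptor without a kinase domain, stood at -0.71 and FGF14, an intracellular FGF, at -1.32. The fall of FGF14 rests on few reads: 10, 7 and 13 in siIDT, sino4 and siSMPLT, against 30 and 24 in siL2 and siNT. It averaged 0.033 TPM with USP17 siRNA and 0.085 TPM with control siRNA. FGF20 and FGF14 hold ATCACTC, while FGFR4 and FGFRL1 hold none of the 7-mers. The part of the 7-mers in these falls was not tested. FGFR1 and FGF13, which were more abundant in TPM than any of these, had log2 fold changes of -0.19 and -0.05 and did not pass.

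Of 7 ERBB receptors and ligands tested none was called by edgeR, DESeq2 or limma-voom, with 2 at an unadjusted p under 0.05 (ERBB3 at 0.77 and TGFA at 0.62 on the log2 scale), a share near the 28.9% of all genes. Of other receptor tyrosine kinases 2 of 7 fell, KIT (-0.64) and the insulin receptor gene INSR (-0.43), and INSR carries ATCACTC. Over all genes tested, edgeR called 5.82% lower and 4.64% higher. Among 22 adaptors and RAS regulators edgeR called 2 lower and none higher, a share near the 10.5% of all genes called. At an unadjusted p under 0.05 there were 9, against 28.9% of all genes. SOS2, an exchange factor for RAS chosen after its values were seen, was at 0.35 with adjusted p = 0.0502 in edgeR, and was called higher by DESeq2 (0.0167) and by limma-voom (0.0498). GAB2, a docking protein that links receptors to SHP2, measured 28.0, 29.2 and 30.1 CPM with siIDT, sino4 and siSMPLT, against 47.5 and 71.2 CPM with siL2 and siNT (log2 fold change -1.03 ± 0.15, SE; adjusted p 0.00924, edgeR). IRS2, the insulin receptor substrate, fell by 0.58 on the log2 scale. Neither holds a 7-mer, and both were higher in siNT than in siL2, as ETV5 was. Of 17 genes of the cascade itself BRAF alone was called, against 10.5% of all genes. MAP2K1, which encodes a MEK kinase, had a log2 fold change of -0.05 and did not pass.

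None of the 7 other MAPK phosphatases was called by edgeR, DESeq2 or limma-voom, with 4 at an unadjusted p under 0.05: DUSP1 (0.33), DUSP2 (-0.31), DUSP7 (-0.27) and DUSP9 (-0.24), all log2 fold changes, where 28.9% of all genes were under that p. Of 8 further feedback inhibitors, LRIG1, which promotes the turnover of ERBB receptors, fell by 0.64, PEBP1, which binds RAF, fell by 0.57 and LRIG3 rose by 0.30 on the log2 scale. LRIG1 and PEBP1 hold TCACTCA. SPRY1 had a log2 fold change of -0.27 and IL17RD, which binds FGF receptors, of 0.04, and neither passed. Other ETS factors had 3 of 13 higher, ETV1, ELF1 (0.68) and ELK4 (0.33), and ELK3 (-0.47), a carrier of TCACTCA, lower. Over all genes tested, edgeR called 4.64% higher and 5.82% lower.

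Further ERK-responsive genes gave no call in edgeR's test. Of 16 tested, 5 were under an unadjusted p of 0.05, a share near the 28.9% of all genes. DESeq2 called 3 of them, against 17% of all genes that it gave an adjusted p. With limma-voom 1 was called, against 10.3% of all genes. The median log2 fold change in edgeR was 0.09. EPHA4, a receptor used in scores of pathway output, stood at 0.45 (adjusted p 0.0542, edgeR), EPHA2 at -0.16 and CCND1, the gene of cyclin D1, at 0.14. EGR1 and FOS, immediate early genes, were listed below 0.5 TPM on average in both groups, at log2 fold changes of 0.60 and 0.74 that did not pass.

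Most of these calls were lost without at least 1 of the USP17 libraries. Of the called list genes named here, FGF20 and ELF1 passed with each library left out in turn. FGFR4, IRS2 and ATXN1 lost the call without siIDT or sino4, and FGFRL1 also without siNT. KIT, GAB2, LRIG1, PEBP1 and ETV1 lost it without sino4 (adjusted p 0.0513 to 0.0878, edgeR). ELK3 and ELK4 lost it without any 1 of the USP17 libraries, INSR likewise and without siNT, and FGF14 and LRIG3 likewise and without siL2. These last 3 were also lost under other processing. INSR missed with limma-voom (adjusted p 0.0534), no filter (0.0522, edgeR) and RSEM counts (0.0528, edgeR). LRIG3 missed with no filter (0.0709), RSEM counts (0.0519) and unstranded counts (0.0508), all in edgeR. FGF14 missed with scaling by library size alone (0.0506) and RSEM counts (0.0787), both in edgeR. Without siIDT or sino4 the FGF list had 1 gene called, FGF20. Over all genes, the refit without sino4 called 50 higher and 80 lower, against 759 and 951 with all libraries. List counts are not given for refits with 1 control left.

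**Figure D5:**
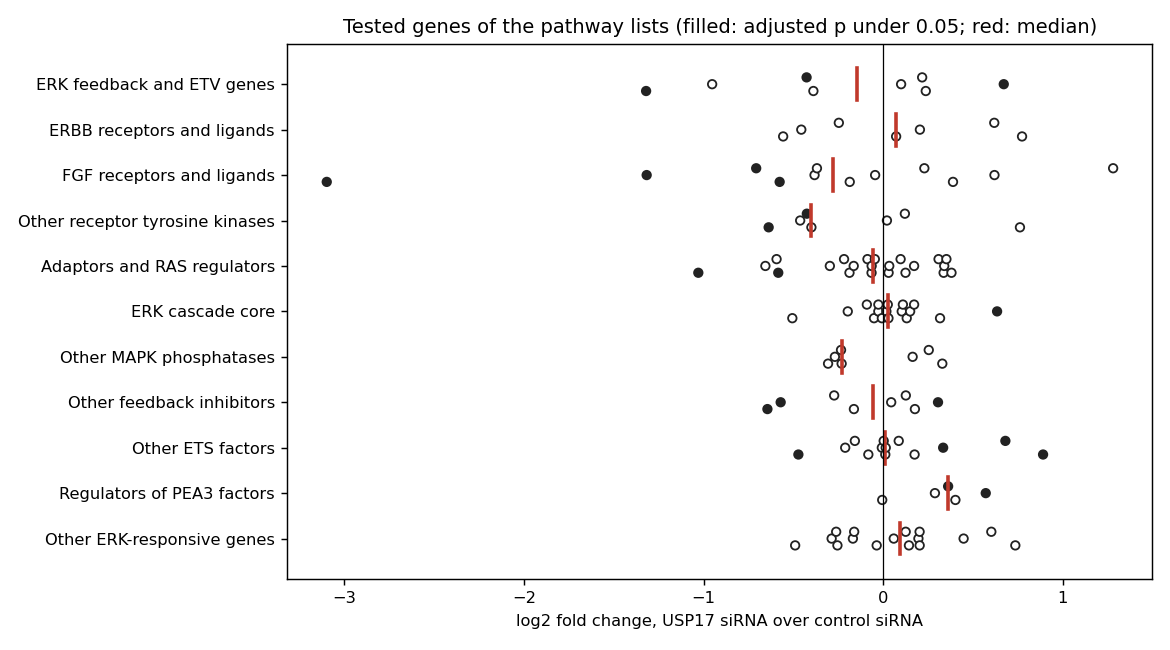
Log2 fold changes, USP17 siRNA over control siRNA, of the tested genes of the ERK feedback set and of the 10 pathway lists, with filled points where the adjusted p was under 0.05 and a red bar at each median. The FGF list reaches down to -3.10 (FGF20), and the ERBB list, the ERK-responsive list and the list of other MAPK phosphatases hold no filled point.

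Profiles over the 5 libraries were compared by the root mean square difference of centred log2 CPM. This is a description over 5 points that share libraries and depth. The 12061 genes outside the set had a mean log2 CPM of at least 1, a floor not applied to the feedback genes. The genes nearest to ETV5 were LANCL1-AS1 (0.12), RAB6B (0.13) and PCDH7 (0.16), with log2 fold changes of -1.17, -1.08 and -1.27. The nearest of the other 7 tested feedback genes was SPRY2, at 0.23 and rank 16 of 12068, with only 15 to 40 reads per library. Nearest to SPRED2 were RUNX1 (0.01), CLTB (0.03) and RBM18 (0.03), with ETV4 its nearest fellow at 0.27 and rank 6893. Among the genes nearest to DUSP5 were RBPMS (0.04) and the unnamed gene ENSG00000262877 (0.04), with PHLDA1 its nearest fellow at 0.31 and rank 4626. Of the 3 called genes ETV5 had the nearest fellow by rank, and the other called genes had theirs at rank 4626 or beyond. The distances themselves, 0.23, 0.27 and 0.31 for ETV5, SPRED2 and DUSP5, differed far less. A rank counts all genes that lie nearer, and fewer lay that near ETV5.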

How the data were processed

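Per the submitters' processing notes, bcl2fastq 2.20, STAR 2.7.1a and RSEM 1.3.2 were used with GRCh38. Neither an annotation release nor a strand setting is stated there. The authors deposited, for each library, read counts per gene in STAR's layout and RSEM tables with expected counts and TPM. Same-strand counts exceeded opposite-strand counts 18.7-fold to 19.9-fold, and the same-strand column served as the main one. Rows for unassigned reads (22.8% to 24.4%) were left out. Analysis used edgeR 4.0.16 under R 4.3.3: filterByExpr (minimum count 10, minimum total 15), TMM scaling and the two-sided quasi-likelihood F test with Benjamini-Hochberg adjustment over all 16341 genes. The SE is the log2 fold change divided by the square root of F. The fit was tested on simulated data.

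Alternatives were DESeq2 1.42.0, limma-voom (limma 3.58.1), other scalings and filters, RSEM's estimated counts (rounded), unstranded counts and leaving out each library. The genes, lists and 7-mers were chosen with earlier results of these data known. Named were all 10 genes, called genes of each list (up to 5 by smallest p), the 3 nearest profiles of each called gene, and CTNNB1. Other genes were named after their values were seen. All 165 list genes matched a gene identifier. Some genes that this rule names are not reported here.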

Additional observations from a re-analysis of the deposited data

How the results depend on the processing

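No paired analysis was possible because no label gives the libraries of one group a number shared with the other. ETV5 kept its direction and call in all 13 alternatives. DUSP5 and SPRED2 kept theirs in 10 of 13, the exceptions being the refits that left out 1 USP17 library. When 1 library was left out, the feedback and ETV genes called higher numbered 0 to 2 and those called lower 1 to 3, and over all genes 50 to 1384 were called higher and 80 to 1425 lower. Both lowest counts over all genes came without sino4. At an adjusted p of 0.10, 1460 genes were called higher and 1614 lower. Direction turned for DUSP6 (0.53) and SPRED1 (-0.13) without siL2 and for ETV4 (-0.067) without siIDT, and the cause was not tested. With each library left out, DUSP6 ranged from -0.95 to 0.53, SPRED1 from -0.13 to 0.67 and ETV4 from -0.067 to 0.19 on the log2 scale. Where 1 control remains, its spread is borrowed from the USP17 libraries. SPRY2 was left out by the filter at 1 CPM and had no adjusted p in DESeq2. CPM per kilobase gave other values than TPM because the scales differ. No scaling moved the median of all genes by over 0.1.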
